A study of Saccharomyces cerevisiae EC1118 with 12 samples.

Results

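Sulfate assimilation and the synthesis of methionine and cysteine were followed in EC1118, a commercial wine strain of Saccharomyces cerevisiae, through 41 genes chosen by name for their known roles. They are genes of sulfate uptake and reduction, of methionine and cysteine synthesis, of sulfur compound transport and of the regulators of these steps. All 41 were found by gene symbol among the 5449 genes of the array, each with 1 probe set. Of the 41, 34 had a mean level above 5.84 on the log2 scale, the 25th percentile of all genes, and 7 were below it and are called dim here. The dim members, SUL1, MET8, CBF1, MUP1, MMP1, JLP1 and BDS1, were tested with the others. The cells were grown in continuous culture in a synthetic must limited for nitrogen. The dilution rate was 0.1 per hour and the pH 3.5, and cells were sampled at steady state. The 4 groups of 3 arrays differed in the sparging gas, which was free of oxygen in the anaerobic group and held 1%, 5% or 20% oxygen in the others. The sample descriptions give 0.8, 4 and 11 micromolar dissolved oxygen for the oxygenated groups and the sample titles give 1.2, 2.7 and 5, so the groups are named here by the gas. All cultures were of this single strain. The labels do not say if each array had a chemostat of its own, and p-values cover only array-to-array spread, which may be technical.

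Yeast takes up sulfate through permeases, activates it with ATP and reduces it to sulfite and then to sulfide, the last step by a sulfite reductase that carries siroheme. Sulfide is joined to O-acetylhomoserine to form homocysteine, which is methylated to methionine or passed through cystathionine to cysteine. The transcription activator Met4, which binds DNA through Cbf1, Met28, Met31 and Met32, turns these genes on when organic sulfur is scarce, and the ubiquitin ligase that contains Met30 restrains it. In wine making the same pathway is known as a source of hydrogen sulfide, an off-odour.

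Levels are log2 values made by RMA, which adjusts for background, puts all arrays on a common distribution and reduces each probe set to 1 value, so a difference of 1 is a 2-fold change. The level of a probe set is compared between arrays and never with that of another gene. A gene was called where the adjusted p of limma, taken over all 5449 genes, was under 0.05. The arrays followed their labels in 6 oxygen-repressed genes, HEM13, ANB1, AAC3, DAN1, TIR1 and AUS1, all of which fell at 20% oxygen. In the 20% group HEM13 was at 6.24 to 6.99 and DAN1 at 4.93 to 9.27. Anaerobic array 1 and 1% oxygen array 3 stood apart from their partners in 19 general stress genes, whose median level was 10.11 and 9.63 in these arrays and 8.38 to 9.23 in the other 10. The part of that difference in the results was not tested. Calls of members that end when both arrays are left out together are named below. For 16 haploid mating genes, 14 of them dim, the median level lay between 3.29 and 4.45 on each array. Single genes moved: at 20% oxygen 2 of the 16 were called higher and 0 lower, against 3.27% and 4.64% of all genes. MF(ALPHA)1 was at 2.79, 4.50 and 3.55 without oxygen and at 8.35, 7.37 and 6.98 at 20%.

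Most of the sulfur genes had a higher mean at 20% oxygen than without oxygen, and few of these differences passed the test. At 20% oxygen 6 of the 41 were called (14.6%), against 7.91% of all genes. The 5 that rose were the sulfate permease gene SUL1 and the transporter genes SEO1, YCT1, OPT1 and SAM3. The one that fell was CBF1. Higher calls made up 12.2% of the members and 3.27% of all genes, and lower calls 2.44% and 4.64%. The difference was above 0 for 34 members (82.9%), against 54.4% of all genes, and the median difference was 0.54 for the members and 0.05 for all genes. In 14 members all 20% arrays were above all anaerobic arrays (34.1%, against 18.3% of all genes), and in 2 they were all below (4.88%, against 15.9%).

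At 5% oxygen 4 members were called (9.76%), against 16.3% of all genes. YCT1 and SEO1 rose (4.88%, against 5.32%), and CYS3 and CBF1 fell (4.88%, against 11.0%). At 1% oxygen 3 members were called (7.32%), against 16.4% of all genes. YCT1 rose (2.44%, against 5.27%), and CYS3 and CBF1 fell (4.88%, against 11.2%). The median difference was 0.27 at 5% and 0.04 at 1%, beside 0.07 and 0.00 for all genes. All arrays were above the anaerobic ones in 11 members at 5% (26.8%, against 25.5% of all genes) and in 11 at 1% (26.8%, against 19.9%), and below in 6 at 5% (14.6%, against 22.2%) and in 7 at 1% (17.1%, against 24.6%). These 3 comparisons share the anaerobic arrays. A moderated F test for any difference among the 4 groups called YCT1, SEO1 and CBF1, which is 7.32% of the members and 10.1% of all genes. With 1 array dropped, the F call of SEO1 was lost for 9 of the 12 arrays, that of YCT1 for 5 and that of CBF1 for the 3 anaerobic arrays (highest adjusted p = 0.194, 0.153 and 0.123). The SEO1 call also ended without anaerobic array 1 and 1% oxygen array 3 together (adjusted p = 0.0861), and that of CBF1 with quantile scaling (adjusted p = 0.177). Without 20% oxygen array 2 the F test called 16 members (39.0%), against 10.1% of all genes. That array was the lowest of its group in most members, and the count rests on the values that set it apart.

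**Figure D1:**
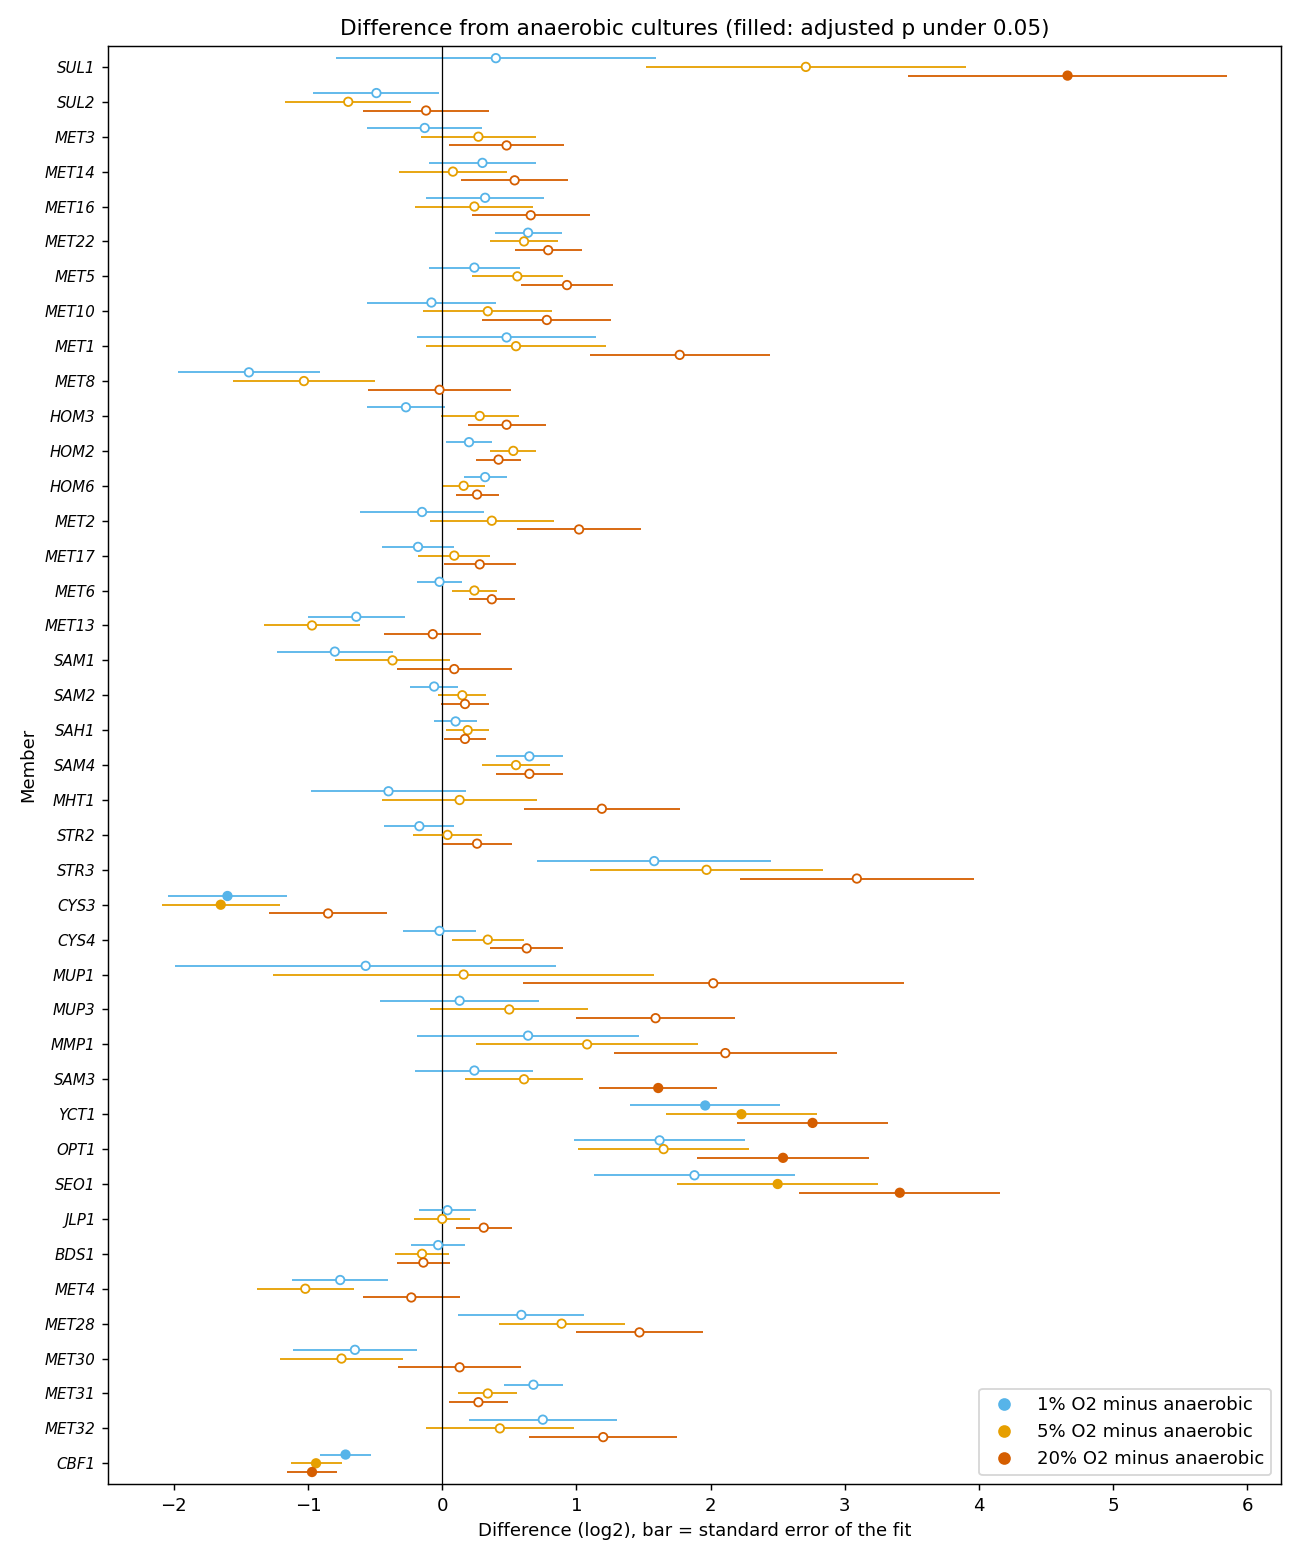
Difference from the anaerobic group on the log2 scale for each of the 41 genes at 1%, 5% and 20% oxygen, with the standard error of the fit as bars. Filled points passed the adjusted p threshold. SUL1 is farthest to the right at 4.66, the 7 transporter genes from MUP1 to SEO1 lie between 1.59 and 3.41 at 20% oxygen, and CYS3 and CBF1 lie to the left at each oxygen level.

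Sulfate enters through SUL1 and SUL2, a pair of high-affinity permeases. SUL1 was at 2.71, 2.15 and 2.19 in the anaerobic arrays and at 2.86, 1.98 and 3.41 at 1% oxygen. It was at 6.17, 4.69 and 4.32 at 5% oxygen and at 8.02, 3.29 and 9.72 at 20% oxygen. The anaerobic and 1% arrays overlapped, the 5% arrays were above both, and the 20% group ran from below all the 5% arrays to far above them. The mean rose from 2.35 ± 0.32 to 7.01 ± 3.33 (SD, n = 3 in each), a difference of 4.66 ± 1.19 (standard error), with an adjusted p = 0.0339 by limma. That call was lost when any anaerobic array, 20% oxygen array 1 or 20% oxygen array 3 was dropped (highest adjusted p = 0.108), and with 1 array dropped the difference ran from 3.31 to 6.52. It was also lost in a fit of the 2 groups alone (adjusted p = 0.0658). At 5% oxygen the difference of 2.71 ± 1.19 was not called (adjusted p = 0.137). SUL1 is among the dim genes, and its anaerobic and 1% levels all lay under the 5.84 that bounds them, so no fold is given.

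The partner permease gene did not follow. SUL2 was at 8.92, 7.84 and 8.64 without oxygen, at 7.88, 7.95 and 8.10 at 1%, at 8.20, 7.45 and 7.64 at 5%, and at 8.44, 7.15 and 9.45 at 20% oxygen. The 4 groups overlapped, and the difference at 20% oxygen was -0.12 ± 0.47 (adjusted p = 0.912). SUL2 nevertheless ordered the 20% arrays as SUL1 did, with array 2 lowest and array 3 highest.

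The 7 transporter genes for organic sulfur compounds were the role group with the most calls. At 20% oxygen 4 of the 7 were called higher, against 3.27% of all genes. The other 3 had higher means, and the median difference of the 7 was 2.11. YCT1, which encodes a cysteine transporter, rose at every oxygen level. It was at 8.09, 6.19 and 7.25 in the anaerobic arrays and at 8.98, 8.80 and 9.64 at 1% oxygen. It was at 9.67, 9.73 and 8.83 at 5% and at 10.03, 8.76 and 11.04 at 20% oxygen. All 9 oxygenated arrays were above the anaerobic ones, and the oxygenated groups overlapped each other. The differences were 1.96 ± 0.56 at 1% (adjusted p = 0.036), 2.23 ± 0.56 at 5% (adjusted p = 0.0191) and 2.76 ± 0.56 at 20% oxygen (adjusted p = 0.012). At 20% the call ended without anaerobic array 2 alone (adjusted p = 0.0547), the array in which YCT1 was lowest. At 5% dropping anaerobic array 2 or 3, or array 1 or 2 of the 5% group, ended it (highest adjusted p = 0.0866). At 1% dropping anaerobic array 2 or 3, or array 1 or 3 of the 1% group, ended it (highest adjusted p = 0.147), as did a fit of the 2 groups alone (adjusted p = 0.054) and leaving out anaerobic array 1 and 1% oxygen array 3 together (adjusted p = 0.0707).

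SEO1 encodes a putative permease tied to resistance to a sulfoxide of ethionine, a methionine analog. It was at 4.91, 4.26 and 4.97 without oxygen, at 6.47, 6.27 and 7.04 at 1%, at 7.87, 7.19 and 6.58 at 5%, and at 8.32, 5.97 and 10.07 at 20% oxygen. Every oxygenated array was again above the anaerobic ones, and 20% oxygen array 2 was the lowest of the oxygenated arrays. The gene rose by 2.50 ± 0.75 at 5% (adjusted p = 0.0405) and 3.41 ± 0.75 at 20% oxygen (adjusted p = 0.0182), and its 1.88 ± 0.75 at 1% was not called (adjusted p = 0.0984). The 20% call ended without anaerobic array 2 or 3 (adjusted p up to 0.0736). The 5% call was lost when any of 8 of the 12 arrays was dropped (highest adjusted p = 0.136), and without anaerobic array 1 and 1% oxygen array 3 together (adjusted p = 0.0577).

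OPT1 encodes an oligopeptide transporter that also carries glutathione. It was at 7.26, 5.52 and 6.67 without oxygen, at 7.91, 7.38 and 9.03 at 1%, at 8.70, 8.46 and 7.24 at 5%, and at 8.89, 7.88 and 10.30 at 20% oxygen. The 1% and 20% arrays were above all anaerobic arrays, while 5% oxygen array 3 was level with anaerobic array 1. OPT1 rose by 2.54 ± 0.64 at 20% oxygen (adjusted p = 0.033), and the differences of 1.62 ± 0.64 at 1% and 1.65 ± 0.64 at 5% were not called (adjusted p = 0.097 and 0.0977). Dropping anaerobic array 2 or 3, or array 1 or 3 of the 20% group, ended the call (highest adjusted p = 0.14).

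SAM3, the S-adenosylmethionine permease gene, was at 7.89, 7.35 and 7.67 without oxygen, at 8.04, 7.51 and 8.08 at 1%, at 8.24, 8.69 and 7.80 at 5%, and at 9.38, 8.09 and 10.27 at 20% oxygen. Its 20% arrays were above all anaerobic and all 1% arrays, and overlapped the 5% arrays. The rise of 1.61 ± 0.44 at 20% oxygen (adjusted p = 0.0449) was lost when any of 8 of the 12 arrays was dropped (highest adjusted p = 0.157) and in a fit of the 2 groups alone (adjusted p = 0.0715). It was also lost without anaerobic array 1 and 1% oxygen array 3 together (adjusted p = 0.0534). SAM4, its neighbour in the reference genome of the laboratory strain S288C (RefSeq assembly R64), encodes a homocysteine S-methyltransferase that uses S-adenosylmethionine. SAM4 differed by 0.65 ± 0.25 at 1%, 0.55 ± 0.25 at 5% and 0.65 ± 0.25 at 20% oxygen (adjusted p = 0.0879, 0.146 and 0.127). It was at 8.16, 7.79 and 8.15 without oxygen, at 8.88, 8.40 and 8.77 at 1%, at 8.54, 8.71 and 8.50 at 5%, and at 9.21, 8.61 and 8.22 at 20% oxygen, with all oxygenated arrays above the anaerobic ones.

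Of the other transporter genes, MUP3, for low-affinity methionine uptake, was at 8.61, 7.31 and 8.10 without oxygen, at 8.28, 8.46 and 7.68 at 1%, at 9.09, 8.42 and 7.98 at 5%, and at 9.66, 8.11 and 11.00 at 20% oxygen (1.59 ± 0.59, adjusted p = 0.118). MMP1, for S-methylmethionine uptake, was at 5.07, 4.39 and 4.93 without oxygen, at 5.48, 5.42 and 5.42 at 1%, at 6.68, 6.40 and 4.54 at 5%, and at 6.67, 4.87 and 9.17 at 20% (2.11 ± 0.83, adjusted p = 0.138). MUP1, the high-affinity methionine permease gene, was at 6.66, 2.85 and 4.60 without oxygen and at 6.32, 4.35 and 9.52 at 20% (2.02 ± 1.42, adjusted p = 0.426). In each of the 3 genes, 20% oxygen array 2 lay within the range of the anaerobic arrays and array 3 far above it. MUP1 was also spread widely at 1% oxygen, from 1.74 in array 2 through 3.68 in array 1 to 7.0 in array 3, and was at 4.98, 5.60 and 4.02 at 5% oxygen. MMP1 stands beside MHT1 in the reference genome. MHT1 encodes the homocysteine S-methyltransferase that uses S-methylmethionine, and was at 6.51, 6.14 and 6.50 without oxygen, at 5.98, 5.83 and 6.14 at 1%, at 7.36, 6.19 and 5.98 at 5%, and at 7.59, 6.05 and 9.07 at 20% (1.19 ± 0.58, adjusted p = 0.231). Both had array 2 lowest and array 3 highest of the 20% arrays, with array 1 between, an order held by 28 of the 41 members. SAM3 and SAM4, the other neighbours among the members, did not share it, as SAM4 was lowest in array 3.

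**Figure D2:**
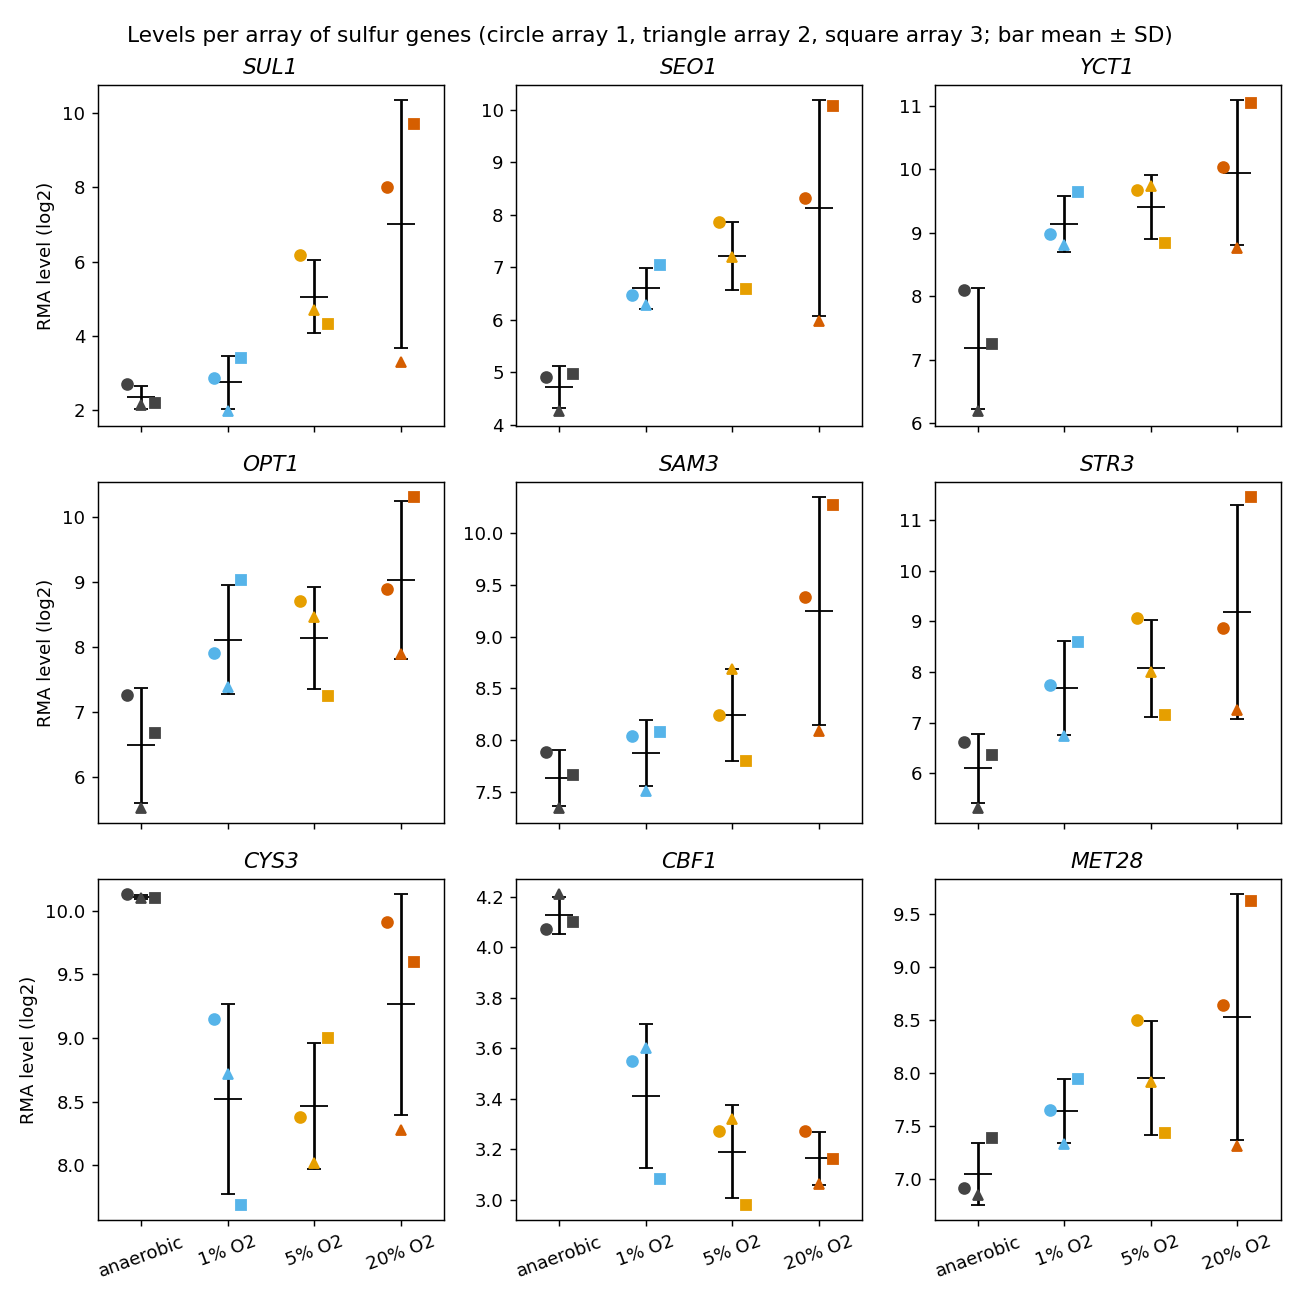
Levels (log2) of 9 genes on the 12 arrays by group, with array 1 as a circle, array 2 as a triangle, array 3 as a square, and the mean ± SD of each group in black. YCT1 and SEO1 are above their anaerobic arrays at every oxygen level and CYS3 and CBF1 below. At 20% oxygen SUL1 runs from 3.29 in array 2 to 9.72 in array 3.

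Of the 4 transsulfuration genes, which link homocysteine and cysteine, CYS3 fell at 1% and 5% oxygen, against 11.2% and 11.0% of all genes. STR3 had a difference just outside the threshold at 20%. CYS3 encodes cystathionine gamma-lyase, the last step to cysteine. It was at 10.13, 10.10 and 10.10 in the anaerobic arrays, at 9.15, 8.72 and 7.69 at 1%, at 8.38, 8.02 and 9.00 at 5%, and at 9.91, 8.28 and 9.60 at 20% oxygen. All 9 oxygenated arrays were below the anaerobic arrays, which had an SD of 0.02. CYS3 fell by 1.60 ± 0.44 at 1% (adjusted p = 0.0322) and by 1.65 ± 0.44 at 5% oxygen (adjusted p = 0.0253), and the difference of -0.85 ± 0.44 at 20% was not called (adjusted p = 0.252). The 1% call was lost when any anaerobic array or array 3 of the 1% group was dropped (highest adjusted p = 0.105), and without anaerobic array 1 and 1% oxygen array 3 together (adjusted p = 0.166). The 5% call was lost when any anaerobic array or array 1 or 2 of the 5% group was dropped (highest adjusted p = 0.102). The direct comparison of 20% with 5% oxygen gave 0.80 ± 0.44 (adjusted p = 0.999).

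STR3 encodes cystathionine beta-lyase, which works in the opposite direction, from cystathionine to homocysteine. It was at 6.61, 5.32 and 6.37 without oxygen, at 7.74, 6.73 and 8.59 at 1%, at 9.07, 8.00 and 7.15 at 5%, and at 8.86, 7.26 and 11.45 at 20% oxygen. All oxygenated arrays were above the anaerobic ones, and the difference at 20% was 3.09 ± 0.87 (adjusted p = 0.0501, 8.51-fold). It passed the threshold with quantile scaling, median scaling, dim genes left out, the replicate block and array weights, and without 1% oxygen array 3 or 20% oxygen array 2. It did not pass in the other settings. These included a fit of the 2 groups alone (adjusted p = 0.0679) and any anaerobic array dropped (adjusted p = 0.0772 to 0.174). Without 20% oxygen array 3 the difference was 1.96 (adjusted p = 0.126). Over all settings its adjusted p ran from 0.0183 to 0.174. It was 1.58 ± 0.87 at 1% and 1.97 ± 0.87 at 5% (adjusted p = 0.211 and 0.139). STR2, for cystathionine gamma-synthase, and CYS4, for cystathionine beta-synthase, differed at 20% oxygen by 0.26 ± 0.26 and 0.63 ± 0.27 (adjusted p = 0.601 and 0.174).

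None of the 8 genes of sulfate reduction was called in any comparison. Of all genes 7.91%, 16.3% and 16.4% were called at 20%, 5% and 1% oxygen, shares that also stand beside the role groups below. The median difference of the 8 genes at 20% oxygen was 0.72, from -0.02 to 1.77. In the order of the pathway, MET3 (ATP sulfurylase) differed by 0.48 ± 0.43, MET14 (adenylylsulfate kinase) by 0.54 ± 0.40 and MET16 (phosphoadenylylsulfate reductase) by 0.66 ± 0.44. The sulfite reductase subunit genes MET10 and MET5 differed by 0.78 ± 0.48 and 0.93 ± 0.34. MET22, whose product removes a nucleotide left over from the reduction, was at 9.20, 9.17 and 9.47 without oxygen, at 9.85, 9.54 and 10.38 at 1%, at 10.08, 9.77 and 9.83 at 5%, and at 10.01, 9.71 and 10.49 at 20% oxygen. It had its oxygenated arrays above its anaerobic arrays at every level, with differences of 0.64 ± 0.25, 0.61 ± 0.25 and 0.79 ± 0.25 (adjusted p = 0.0954, 0.116 and 0.0772).

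The siroheme genes MET1 and MET8 were the extremes of this role group. MET1, for the methyltransferase that starts siroheme synthesis, was at 8.04, 7.60 and 7.98 without oxygen, at 8.32, 8.28 and 8.46 at 1%, at 9.25, 8.23 and 7.79 at 5%, and at 9.57, 7.87 and 11.48 at 20% oxygen (1.77 ± 0.67 at 20%, adjusted p = 0.123). MET8, for the enzyme that completes siroheme, was at 6.68, 6.39 and 5.69 without oxygen, at 5.15, 4.71 and 4.59 at 1%, at 5.18, 4.54 and 5.94 at 5%, and at 6.78, 4.80 and 7.11 at 20% oxygen. MET8 was below its anaerobic arrays in every 1% array (-1.44 ± 0.53, adjusted p = 0.081), and overlapped them at 5% and 20%. Both had array 2 lowest and array 3 highest at 20% oxygen.

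Among the 7 genes that lead from aspartate to methionine, none was called, and the median difference at 20% oxygen was 0.37. MET2, for homoserine acetyltransferase, had the largest, at 9.51, 8.98 and 9.35 without oxygen, 9.21, 9.42 and 8.75 at 1%, 9.84, 9.88 and 9.24 at 5%, and 10.22, 9.14 and 11.54 at 20% (1.02 ± 0.46, adjusted p = 0.194). MET13, for methylenetetrahydrofolate reductase, had the lowest, at 6.59, 6.63 and 6.33 without oxygen, 6.11, 6.16 and 5.34 at 1%, 5.92, 5.30 and 5.41 at 5%, and 6.99, 5.56 and 6.81 at 20% (-0.07 ± 0.36, adjusted p = 0.939). MET13 was below its anaerobic arrays at 1% and at 5% oxygen (-0.97 ± 0.36 at 5%, adjusted p = 0.0803). HOM2, for aspartate semialdehyde dehydrogenase, was at 10.91, 10.72 and 10.93 without oxygen, at 11.16, 10.88 and 11.12 at 1%, at 11.40, 11.41 and 11.33 at 5%, and at 11.40, 11.34 and 11.09 at 20%. It had its 5% and 20% arrays above the anaerobic ones by small and even amounts, 0.53 ± 0.17 at 5% (adjusted p = 0.0523) and 0.42 ± 0.17 at 20% (adjusted p = 0.143). HOM6, for homoserine dehydrogenase, had the largest positive difference of this role group at 1% oxygen (0.32 ± 0.16, adjusted p = 0.182), with arrays at 11.55, 11.31 and 11.48 without oxygen, 11.76, 11.72 and 11.82 at 1%, 11.67, 11.69 and 11.44 at 5%, and 11.65, 11.62 and 11.84 at 20%. Its 1% and 20% arrays were above the anaerobic ones. The aspartate kinase gene HOM3, HOM6, the sulfhydrylase gene MET17 and the methionine synthase gene MET6 differed by 0.26 to 0.48 at 20% oxygen, with adjusted p from 0.213 to 0.591.

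The S-adenosylmethionine cycle genes, also without a call, had a median difference of 0.17 at 20% oxygen. The synthetase genes SAM1 and SAM2 are close paralogs whose probe sets may share signal, and differed by 0.09 ± 0.43 and 0.17 ± 0.18. SAM1 was at 9.78, 9.60 and 9.60 without oxygen, at 9.50, 9.32 and 7.77 at 1%, at 9.52, 9.23 and 9.12 at 5%, and at 10.13, 8.93 and 10.18 at 20%. Its 1% and 5% arrays were below the anaerobic ones, 1% oxygen array 3 most. SAH1, for the hydrolase of S-adenosylhomocysteine, had the most even levels, from 11.81 to 12.20 over all 12 arrays. The genes for use of other sulfur sources, JLP1 for a sulfonate dioxygenase and BDS1 for a sulfatase, were dim on every array, at 2.39 to 3.20 and 0.70 to 1.30, with differences from the anaerobic group of -0.15 to 0.31 and no call.

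Of the 6 regulator genes, CBF1 was called. It was at 4.07, 4.21 and 4.10 in the anaerobic arrays, at 3.55, 3.60 and 3.08 at 1%, at 3.27, 3.32 and 2.98 at 5%, and at 3.27, 3.06 and 3.16 at 20% oxygen. All oxygenated arrays were below the anaerobic ones, and the 5% and 20% arrays overlapped. CBF1, whose product binds centromeres as well as sulfur gene promoters, fell by 0.72 ± 0.19 at 1% (adjusted p = 0.0284), by 0.94 ± 0.19 at 5% (adjusted p = 0.00719) and by 0.97 ± 0.19 at 20% oxygen (adjusted p = 0.0105). The gene is dim on every array, at the 7.0 percentile of mean level, and with quantile scaling none of the 3 calls held (adjusted p = 0.315, 0.137 and 0.0766). The 20% call also ended without anaerobic array 2 (adjusted p = 0.0534), and the 1% call when any anaerobic array or array 3 of the 1% group was dropped (highest adjusted p = 0.114). A fit of the 2 groups alone (adjusted p = 0.0597), or one without anaerobic array 1 and 1% oxygen array 3 together (adjusted p = 0.13), also ended the 1% call. The 5% call held with every single array dropped.

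The other regulators were not called. MET4 was at 7.21, 7.54 and 7.18 without oxygen, at 6.76, 6.04 and 6.85 at 1%, at 6.11, 6.40 and 6.37 at 5%, and at 7.14, 6.22 and 7.90 at 20% oxygen. All its 1% and 5% arrays were below the anaerobic ones (-0.76 ± 0.36 and -1.02 ± 0.36, adjusted p = 0.148 and 0.0701), and the 20% arrays lay on both sides of them. MET30, for the F-box protein that marks Met4 for ubiquitination, was at 7.44, 7.65 and 7.37 without oxygen, at 6.98, 7.27 and 6.25 at 1%, at 7.04, 6.75 and 6.42 at 5%, and at 7.64, 6.43 and 8.77 at 20%. It shared with MET4 the lower 1% and 5% arrays and the overlap at 20%, with differences of -0.65, -0.75 and 0.13 (standard error 0.46).

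MET28, for a leucine zipper partner of Met4, was at 6.91, 6.85 and 7.38 without oxygen, at 7.65, 7.33 and 7.94 at 1%, at 8.50, 7.91 and 7.43 at 5%, and at 8.64, 7.31 and 9.62 at 20%. Its means went up with each oxygen level, to a difference of 1.47 ± 0.47 at 20% that was not called (adjusted p = 0.0766). MET32, for a zinc finger protein, was at 6.45, 6.07 and 6.42, then 6.91, 6.83 and 7.47, then 7.66, 6.63 and 5.96, then 7.71, 6.13 and 8.70 at 0, 1%, 5% and 20% oxygen (1.20 ± 0.55 at 20%, adjusted p = 0.202). Its paralog MET31 was at 5.68, 6.23 and 6.42, then 6.66, 6.73 and 6.99, then 6.49, 6.58 and 6.27, then 6.57, 6.37 and 6.21. MET31 was highest at 1% oxygen (0.68 ± 0.22, adjusted p = 0.0506) and did not share the spread of the 20% arrays, where its SD was 0.18 against 1.30 for MET32.

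**Figure D3:**
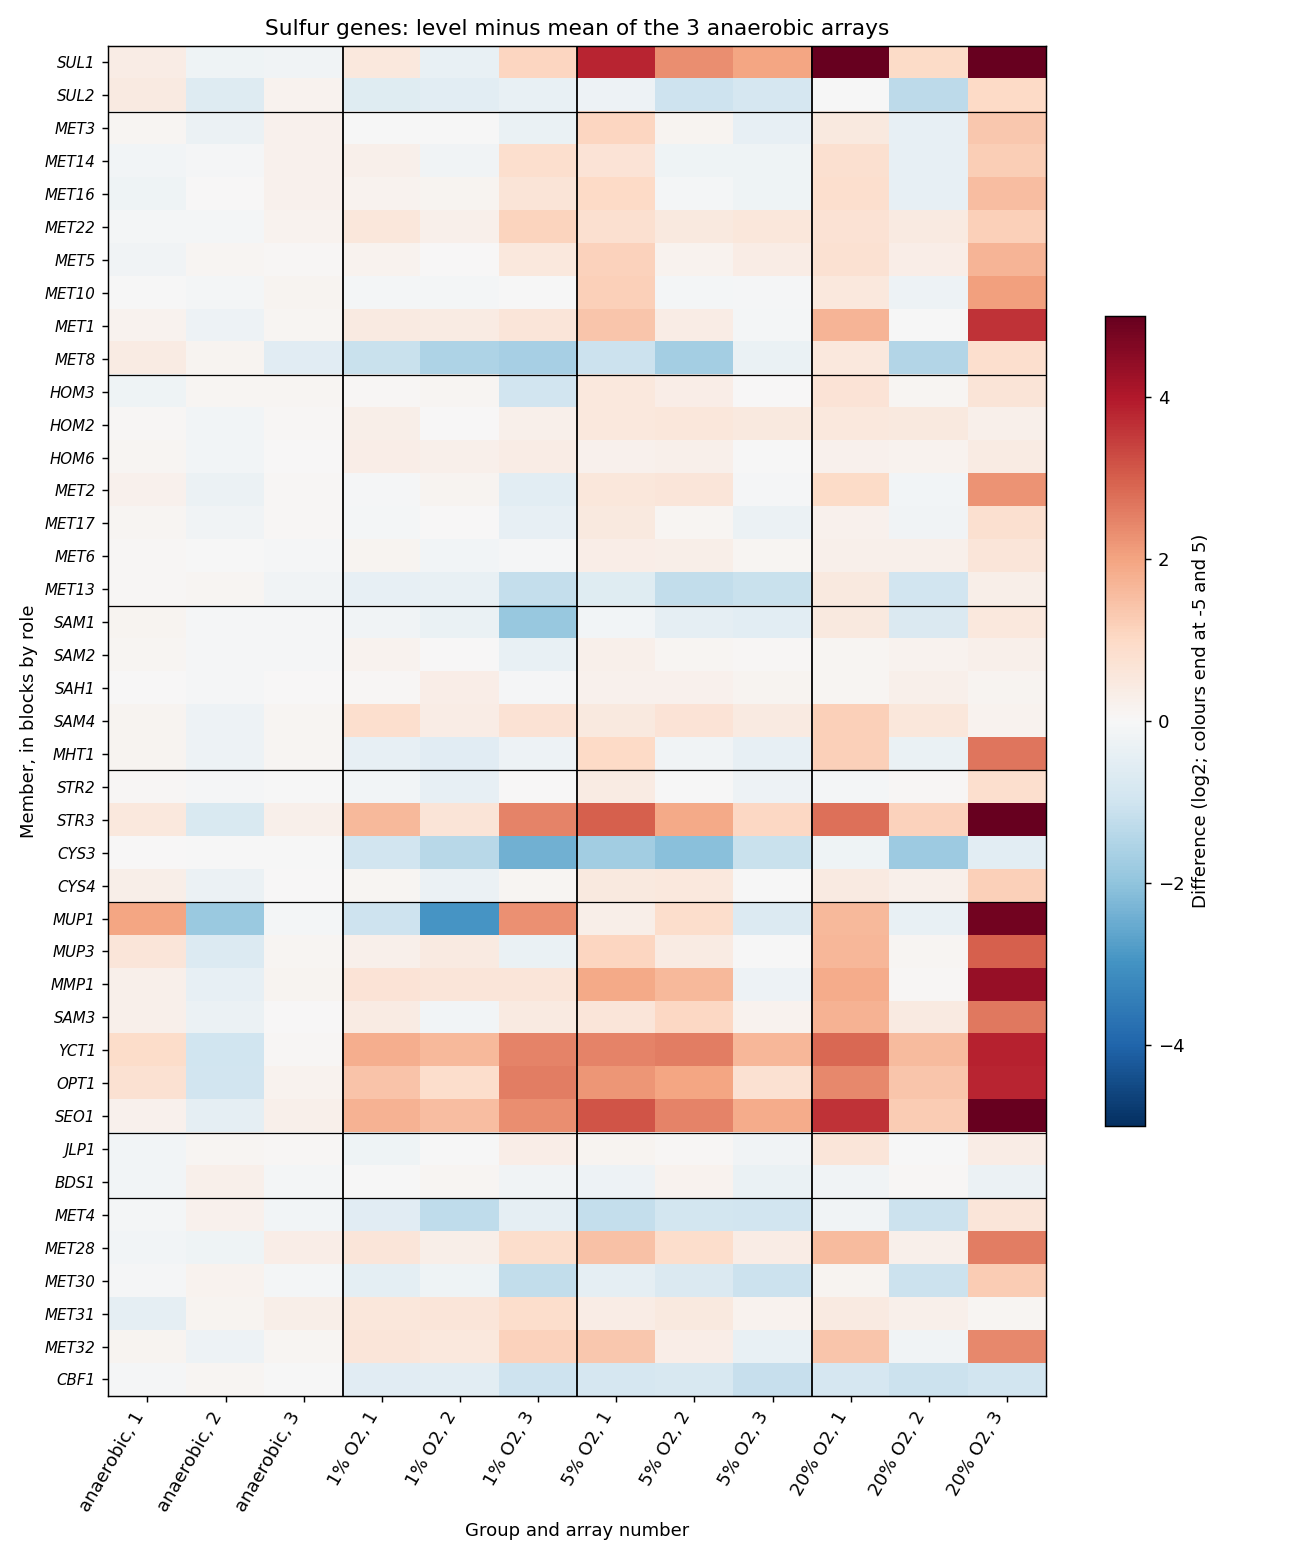
Level of each of the 41 genes on each of the 12 arrays minus the mean of the 3 anaerobic arrays (log2), with genes in blocks by role and arrays in groups. The column of 20% oxygen array 3 is red for most genes, that of 20% oxygen array 2 is pale or blue outside SUL1, STR3, YCT1, OPT1 and SEO1, and the rows of CYS3 and CBF1 are blue in every oxygenated array.

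The 3 arrays at 20% oxygen were far apart in most of these genes. The median SD over 3 arrays was 0.21 for the members in the anaerobic group, 0.29 at 1%, 0.39 at 5% and 0.87 at 20% oxygen, beside 0.16, 0.35, 0.25 and 0.31 for all genes. The SD was widest at 20% oxygen in 31 of 41 members (75.6%), against 30.3% of all genes. The fit uses a single spread per gene for all groups, so the standard errors given here are an average over groups that differ in spread. Which measure to look at within the 20% group was chosen after its values were seen, and the counts that follow describe 3 arrays and carry no test.

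In 28 members (68.3%) array 2 was lowest, array 1 in the middle and array 3 highest, an order held by 14.3% of all genes. Array 3 had the highest level of all 12 arrays in 31 members (75.6%), against 16.8% of all genes. The median of array 3 minus array 2 was 1.67 for the members and 0.01 for all genes, and that of array 1 minus array 2 was 1.08 and -0.10. Array 3 exceeded array 2 by more than 1 in 26 members (63.4%), against 3.3% of all genes. Of all 5449 genes, 37 exceeded 2, and 18 of these were members, which is 48.6% of the 37 genes and 43.9% of the members. SUL1, at 6.42, and MUP1, at 5.17, had the largest differences of any gene measured, and MMP1, STR3, SEO1, MET1, MHT1 and MUP3 were also among the first 20. The other 12 of those 20 were no members, and included HXT2, DAN1 and ISF1. PDC6, a minor pyruvate decarboxylase gene, was at 9.56, 6.89 and 9.84 in the 20% arrays, a split of the same direction.

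By role, all 7 transporter genes and 7 of 8 reduction genes were over 1 higher in array 3 than in array 2, as were both sulfate permease genes and 4 of 6 regulators. Of the 7 genes from aspartate to methionine, MET2 and MET13 were, and of the 5 S-adenosylmethionine cycle genes, SAM1 and MHT1. HOM2, SAH1, SAM4, BDS1 and MET31 were slightly lower in array 3, by 0.12 to 0.38. The 19 general stress genes had a median difference of 0.33 between arrays 3 and 2, from -2.50 to 1.92, and 5 of them were over 1 higher in array 3. Of the 6 oxygen-repressed genes 2 were over 1 higher in array 3, DAN1 (4.93 in array 2, 9.27 in array 3) and TIR1 (7.02 and 9.64), while HEM13 was at 6.30 and 6.24. What set the arrays apart was not tested.

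Against the anaerobic arrays, 20% oxygen array 3 had 37 members above all 3 and 3 below all 3, where all genes had 42.4% above and 35.5% below. Array 1 had 33 above and 5 below, where all genes had 35.1% and 37.0%. Array 2 had 15 above and 14 below, where all genes had 46.5% above and 32.4% below. Array 2 was the lowest 20% array in 33 members (80.5%, against 25.6% of all genes), so leaving it out raises their 20% means by construction. The calls without it rest on the values that singled it out and are no separate support for a rise. Leaving out array 2 raised the number of members called at 20% oxygen from 6 to 14, while the count over all genes fell from 431 to 181 (3.32%). The 13 higher calls were 31.7% of the members, against 1.54% of all genes. They added STR3 (4.05 ± 0.79), MMP1 (3.12 ± 0.70), MET1 (2.65 ± 0.51), MUP3 (2.33 ± 0.48), MET28 (2.08 ± 0.37), MHT1 (1.95 ± 0.45), MET32 (1.89 ± 0.45) and MET2 (1.60 ± 0.38) to the 5 named above, with adjusted p up to 0.0468. Leaving out array 3 left YCT1, SEO1 and CBF1 called (7.32%, against 5.74% of all genes). The median difference of the members was 0.83 without array 2, 0.35 without array 3 and 0.45 without array 1.

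**Figure D4:**
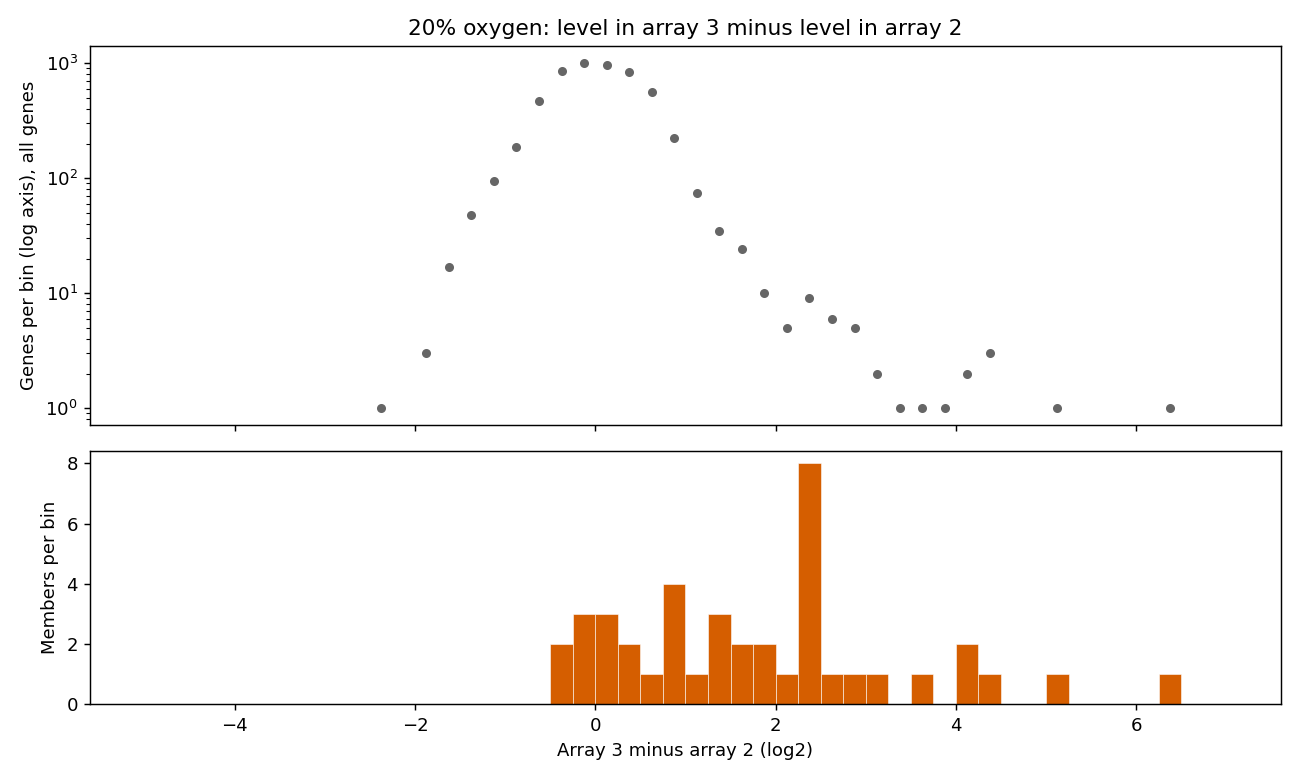
Level in 20% oxygen array 3 minus the level in array 2 (log2, bins of 0.25), as the number of genes per bin among all 5449 genes (points, log axis) and among the 41 members (bars). All genes centre near 0, and 26 members lie above 1, out to 6.42 for SUL1.

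The 5% arrays showed a narrower order. Array 1 was the highest of its group in 26 members (63.4%, against 31.0% of all genes) and array 3 the lowest in 33 (against 38.4% of all genes). In the sulfate reduction genes array 1 was above its partners by a median of 1.02. Anaerobic array 2 was the lowest of its group in 28 members, against 29.7% of all genes. It was the lowest of all 12 arrays in 14 members, among them YCT1, OPT1 and STR3, a measure not counted over all genes. Without this array 0 members were called at 20% oxygen, against 2.81% of all genes.

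No member was called between oxygenated groups, although most means were highest at 20% oxygen. For 20% minus 1% oxygen the difference was above 0 in 36 members (87.8%, against 59.8% of all genes), with 0 called beside 0.367% of all genes by limma. An unadjusted p under 0.05 was reached by 9 members and by 780 of all 5449 genes. All arrays of the 20% group were above all of the 1% group in 3 members (8.83% of all genes) and below in 1 (6.55%). SUL1 had the largest difference, 4.26 ± 1.19 (adjusted p = 0.213). For 20% minus 5% oxygen the difference was above 0 in 37 members (90.2%, against 51.5%), with 0 called beside 0.0% of all genes. An unadjusted p under 0.05 was reached by 3 members and by 149 of all genes. In 0 members did the arrays of these groups separate, upward (3.76% of all genes) or downward (2.04%). For 5% minus 1% oxygen the difference was above 0 in 26 members (63.4%, against 56.2%), with 0 called beside 0.0% of all genes. An unadjusted p under 0.05 was reached by 0 members and by 265 of all genes. The arrays of these 2 groups separated upward in 2 members (6.57% of all genes) and downward in 2 (3.65%). Without 20% oxygen array 2, SUL1, SAM3 and MET8 were called in the comparison of 20% with 1% oxygen (7.32%, against 0.514% of all genes). In each of these 3 genes the array left out was the lowest of the 20% group. In 11 members, SUL1, MET5, MET1, STR3, MUP3, MMP1, SAM3, YCT1, OPT1, SEO1 and MET28, the group means went up at each step from 0 to 20% oxygen, and in CBF1 they went down at each step. This order of means was not counted over all genes. The arrays did not follow it throughout, as 20% oxygen array 2 was below all 5% arrays in SUL1, YCT1, SEO1 and MET28.

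Genes next to the pathway were counted in 6 further lists. How their calls fared with arrays left out is not given here. Over all genes, calls at 1% oxygen fell from 895 to 155 without anaerobic array 1 and 1% oxygen array 3. In methionine salvage and polyamine synthesis, 1 of 12 rose at 20% oxygen, the acireductone dioxygenase gene ADI1 (1.25 ± 0.34, adjusted p = 0.0432). The salvage gene MDE1 rose at 1% (0.89 ± 0.18, adjusted p = 0.0143) and at 5% (0.71 ± 0.18, adjusted p = 0.0228), and the branched-chain aminotransferase gene BAT1 fell at 1% (-1.44 ± 0.44, adjusted p = 0.0463). BAT1 was at 10.69, 10.84 and 10.79 without oxygen and at 9.98, 9.73 and 8.30 at 1%, lowest in array 3. Of 8 glutathione genes, GSH1, for the step that joins glutamate to cysteine, fell at 5% oxygen (-1.37 ± 0.33, adjusted p = 0.0168), and none was called at 1% or 20%. Of 7 genes of folate one-carbon supply, ADE3 fell at 1% (-1.53 ± 0.35, adjusted p = 0.02) and 5% (-1.68 ± 0.35, adjusted p = 0.00889).

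Of 4 subunit genes of the ubiquitin ligase that acts with Met30, SKP1 rose at 1% oxygen (0.75 ± 0.17, adjusted p = 0.018). In the threonine branch and general control list of 3 genes, the homoserine kinase gene THR1 fell at 5% (-1.77 ± 0.50, adjusted p = 0.0312). Of 12 measured genes of other sulfur compounds, ERS1, a relative of the human lysosomal cystine transporter gene, rose at each level, by 1.52 ± 0.28 at 1% (adjusted p = 0.0113), 1.37 ± 0.28 at 5% (adjusted p = 0.00738) and 1.09 ± 0.28 at 20% (adjusted p = 0.0331). ERS1 was at 6.02, 5.88 and 6.12 without oxygen and at 6.83 to 8.21 in all oxygenated arrays, and its 20% arrays, at 6.83, 7.47 and 6.99, did not have the order of SUL1. The methionine sulfoxide reductase gene MXR2 rose at 1% oxygen (0.78 ± 0.23, adjusted p = 0.0382). The medians of these 6 lists at 20% oxygen lay between -0.62 and 0.28, and none of the salvage, folate, ubiquitin ligase or threonine branch genes was over 1 higher in 20% oxygen array 3 than in array 2. In the glutathione list GSH1 (7.04 in array 2, 8.66 in array 3) and DUG3 (7.46 and 9.52) were, and in the list of other sulfur compounds PDC6 and MXR1 (8.63 and 10.22).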

How the data were processed

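Biotin-labelled RNA of 12 samples was measured on Affymetrix arrays, per the labels' protocols. The deposited log2 values were made by the authors with RMA, per the submitters' processing notes. For its version, settings and genome build, nothing is stated in the sources used here. The log2 scale was read from the range of the values (0.318 to 13.7). The platform annotation names 1 gene for 5498 of 5716 probe sets and none for 218, and the RefSeq gene table updated 12 symbols. Where a gene had several probe sets, the one with the highest mean was kept, which left 5449 genes.

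With limma 3.58.1 in R 4.3.3, group means were estimated by lmFit over all 12 arrays and moderated by eBayes (8 residual and 4.11 prior degrees of freedom). Benjamini-Hochberg adjustment ran over all genes, and calls were made at an adjusted p under 0.05. Each ± after a difference is the standard error of the fit. The members, the lists and the alternatives were chosen with earlier results of these data known. Array values are given for the called members, the extremes of each role and the regulators, and other members by their differences or ranges. The fit was run on simulated data, where 39 of 100 genes with a difference of 1 and 85 of 100 with 2 were called. There were 4 false calls. Each simulated gene had the same spread in all groups, so a spread that differs between groups, as in the members, was not covered. The number of arrays limits the precision. The alternatives covered scaling (quantile, median), dim genes, probe set averages, array weights, a block for the replicate number, fits of 2 groups and dropped arrays.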

Additional observations from a re-analysis of the deposited data

How the results depend on the processing

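No called difference turned its sign under any setting run. At 20% oxygen, with 6 members called beside 431 of all 5449 genes, array weights gave 10 beside 1504 of all genes. Dropping 1 array gave 0 (without anaerobic array 2, beside 153 of all genes) to 14 (without 20% oxygen array 2, beside 181). At 5%, with 4 called beside 889 of all genes, array weights gave 13 beside 2442. A fit of the 2 groups alone gave 13 beside 1602, and dropping 1 array gave 1 to 7, beside 400 to 1303 of all genes. At 1%, with 3 called beside 895 of all genes, array weights gave 6 beside 1712. The fit without anaerobic array 1 and 1% oxygen array 3 gave 0 beside 155. Dropping 1 array gave 0 to 5, beside 36 to 985 of all genes. For 20% against 1% oxygen, with 0 called beside 20 of all genes, dropping 1 array gave 0 to 3, beside 5 to 28. The F test's 3 members, beside 553 of all genes, became 12 with array weights, beside 2333. When 1 array was dropped they became 0 to 16, beside 100 to 744 of all genes. The estimation of the array weights stopped before it converged. Quantile and median scaling, probe set averages and dim genes left out moved no count by over 1.5 times. With the replicate number as a block, 6, 4 and 3 members were called at 20%, 5% and 1% oxygen. Over all genes the block gave 303, 697 and 523 calls. The block lost SAM3 (adjusted p = 0.0582) and gained STR3 at 20%. Deviations of arrays with the same number correlated at -0.317 to 0.358. Arrays with different numbers were not compared in this way, so the range does not settle if the numbers pair the arrays. The causes of these changes were not tested. With 3 arrays a group, and calls that depend on single arrays, the counts are unsteady, and genes under the dim threshold have small signals.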
